A study of Mus musculus with 3 samples.

Results

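Potassium channels set the resting membrane potential of a cell and return it to that level after excitation. In vascular smooth muscle their opening hyperpolarises the membrane and closes voltage-gated calcium channels, so that the muscle relaxes, and in the pulmonary circulation the voltage-gated and two-pore channels are known for their part in oxygen sensing. In airway and alveolar epithelium they keep the driving force for chloride and fluid transport, and in lymphocytes and other immune cells they hold the potential that lets calcium enter.

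All gene symbols of the form Kcn followed by letters and a number were taken, which gave 98 genes of the 28692 in the tables. They were 40 voltage-gated pore subunits, 15 inward rectifiers, 14 two-pore channels, 8 calcium- or sodium-activated pore subunits, 16 accessory subunits and 5 noncoding or antisense genes. The series held single-cell RNA-seq of whole lung from 3 wild-type C57BL/6 mice at postnatal day 14, numbered 2, 3 and 4, all kept in room air from day 1 to day 14 of life. There was 1 condition, so the comparisons were between cell types within these mice, with the mouse as the replicate. Whole lungs were digested without sorting, and transcripts were counted from their 3′ ends as unique molecular identifiers (UMIs).

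The files held 3034 to 3475 barcodes per mouse with 22476491 to 25192427 UMIs, and 7642 of 9644 barcodes were kept, with a median of 6033.5 UMIs. The design text named 5677 cells. Of all barcodes in the files, 5 were shared by the libraries of mice 2 and 3, 2 by those of mice 2 and 4, and 5 by those of mice 3 and 4. The library of mouse 3 held 1432 immune cells, against 694 in mouse 2 and 894 in mouse 4. Clusters were named from marker genes that included no potassium channel gene, and 6825 cells fell into 5 classes: 424 mural cells (134 pericyte-like and 290 smooth-muscle-like), 961 endothelial cells (ECs), 1308 epithelial cells, 1112 fibroblasts and 3020 immune cells. Levels are given on the CPM scale, as the UMIs of a gene relative to all UMIs of the summed cells of a mouse, with the mean ± SD of the 3 mice. Levels of different genes were not ranked, since the 3′ capture can differ between transcripts.

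Together the 98 genes gave 53664 UMIs, which was 0.0806% of the UMIs of the kept cells. The noncoding *Kcnq1ot1* held 35.4% of them. In the kept cells 89 genes had a UMI and 38 reached 100 UMIs. The 9 without a UMI were *Kcna10*, *Kcnh5*, *Kcnj6*, *Kcnk9*, *Kcnk15*, *Kcnk16*, *Kcnk18*, *Kcns2* and *Kcnv1*. The 40 genes that passed the filter on low counts were tested between classes, namely 14 voltage-gated pore subunits, 10 accessory subunits, 6 two-pore channels, 5 calcium- or sodium-activated pores, 4 inward rectifiers and 1 noncoding gene. The other 58 did not pass, and the largest of them was *Kcna1* with 367 UMIs. A gene that is present in 1 class passes that filter through this class alone and had to differ, so the counts of called genes describe the pattern and are read against the share called among all genes. Names ending in "-like" or "-type" were given by these markers, with thresholds set after the clusters were seen.

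**Figure D1:**
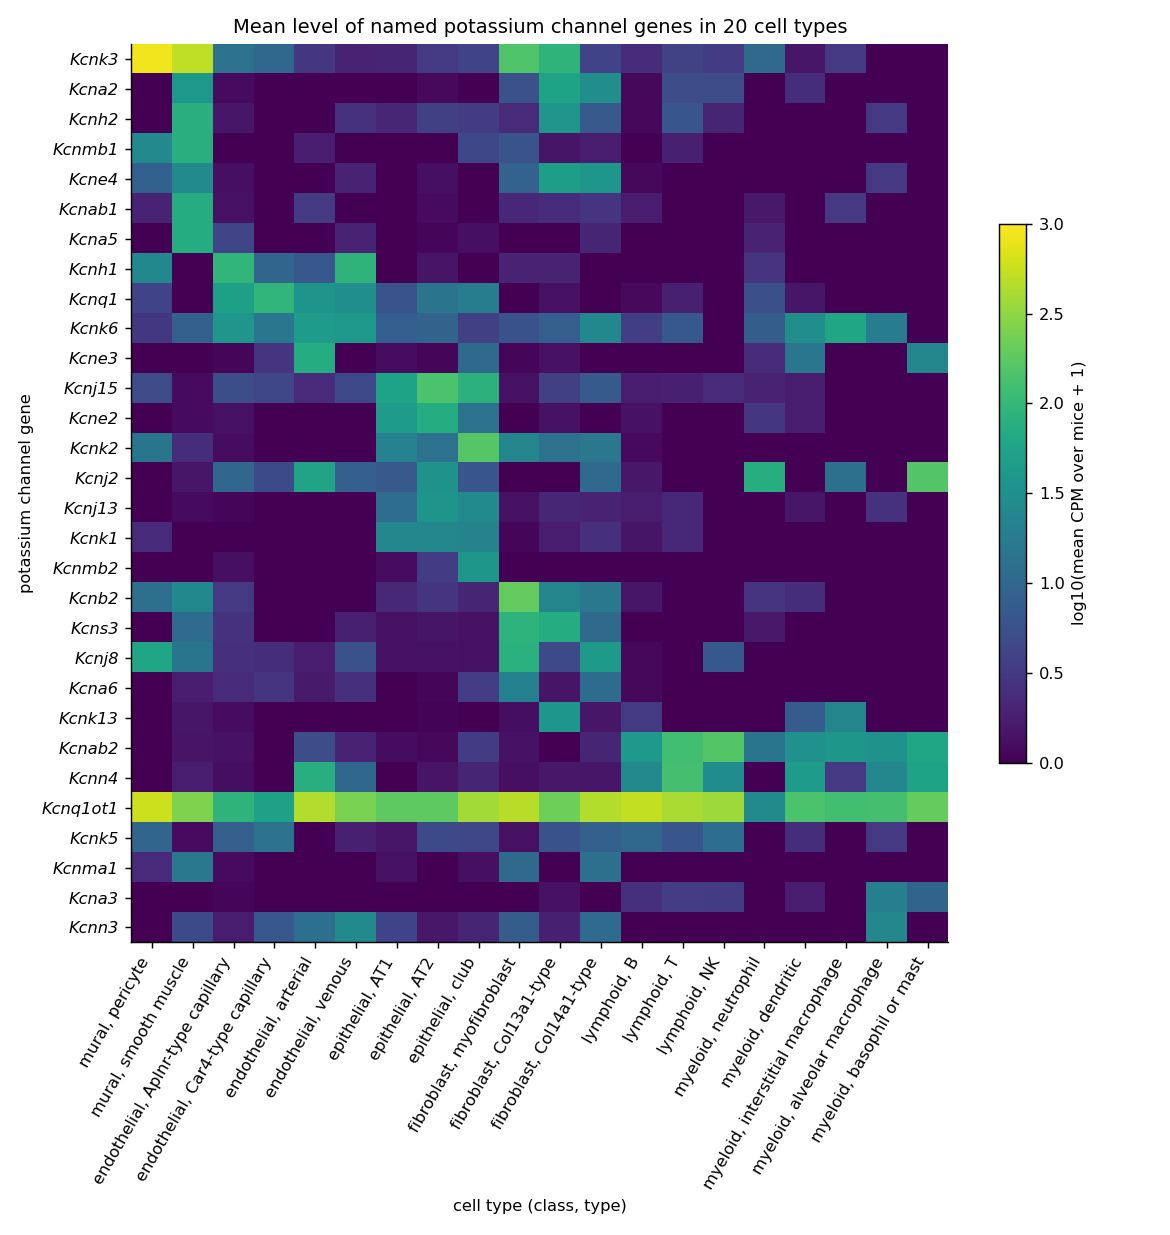
Mean CPM over the mice (colour, log10 of CPM + 1) of 30 named potassium channel genes (rows) in 20 cell types (columns). Kcnk3 is brightest in the mural columns, Kcnj15 in the AT2 column and Kcnb2 in the myofibroblast column, while Kcnq1ot1 is seen in nearly all columns.

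The summed level of the protein-coding genes was highest in mural cells. It was 1157, 1109 and 1071 CPM in mice 2, 3 and 4 (1113 ± 42.9, SD, n = 3). Epithelial cells had 642 ± 22.5 CPM, fibroblasts 610 ± 28.2 CPM, ECs 305 ± 12.02 CPM and immune cells 158 ± 20.4 CPM (SD, n = 3 each). The values of mural cells lay above those of every other class in each mouse, whereas epithelial cells and fibroblasts overlapped, with 625 CPM as the lowest epithelial and 631 CPM as the highest fibroblast value. *Kcnk3* alone had a mean of 565 CPM in mural cells, 119 CPM in fibroblasts and at most 9.27 CPM in the other classes. It thus made up 565 of the mean mural sum of 1113 CPM. Without it the mural sum would lie below the epithelial sum of 642 CPM, and this held in each mouse. Epithelial cells had 2.16 CPM of it. The mural lead over epithelial cells in the sum thus rested on this gene, and sums without it were not tested. Of the 98 genes, 14 had a mean of at least 10 CPM in mural cells, 11 in fibroblasts, 9 in ECs, 9 in epithelial cells and 3 in immune cells.

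Mural cells were compared first, since their tone is the best known task of these channels. Each class was tested against the mean of the 4 others with edgeR's quasi-likelihood test on the summed UMIs, and a gene was called at an adjusted p below 0.05 over all 13894 genes tested. In mural cells 22 of the 40 tested potassium channel genes were called higher, where 27.1% of all genes tested were called higher. The median log2 fold change was 1.94 for these 40 and -0.07 for all genes. Without a filter on low counts, 25 of 86 were called higher, against 19.1% of all genes, and the medians were -0.67 and -0.23.

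*Kcnk3*, which encodes the acid-sensitive two-pore channel TASK-1, had the largest UMI count of the protein-coding genes in mural cells. Its level in mural cells was 615, 544 and 534 CPM in mice 2, 3 and 4, compared with 131, 115 and 111 CPM in fibroblasts and at most 10.7 CPM in any other class and mouse. The values did not overlap, and the log2 fold change against the other classes was 5.97 ± 0.10 (SE, adjusted p = 2.7e-17). In human pulmonary artery smooth muscle TASK-1 helps to set the resting potential, and loss-of-function variants of the human gene are a known cause of pulmonary arterial hypertension.

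Voltage-gated subunits made up most of the remaining mural genes. *Kcna5* encodes Kv1.5, an oxygen-sensitive channel of pulmonary artery muscle, and its mean was 60.1 CPM in mural cells and 2.26 CPM in ECs, the next class (log2 fold change 7.42 ± 0.30, adjusted p = 6.3e-13). *Kcna2*, a further Kv1 pore subunit, had 32.7 CPM in mural cells and 16.6 CPM in fibroblasts. *Kcnh2*, which encodes the ERG channel that repolarises heart muscle, had 65.1 CPM in mural cells and 7.94 CPM in fibroblasts. All 3 were called higher in mural cells, and in all 3 mice the mural value exceeded that of each other class.

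Accessory subunits were also among the genes called higher in mural cells. *Kcnmb1*, the beta-1 subunit that raises the calcium sensitivity of the large-conductance BK channel, had 66.6 CPM in mural cells and at most 3.84 CPM elsewhere (log2 fold change 7.33 ± 0.39, adjusted p = 3.3e-11). *Kcnab1*, the beta subunit of Kv1 channels, had 60.4 CPM and at most 1.19 CPM elsewhere, and *Kcne4*, a single-span regulator of Kv channels, had 22.7 CPM in mural cells and 18.3 CPM in fibroblasts. The BK pore gene *Kcnma1* was also called higher in mural cells (log2 fold change 5.58 ± 0.44, adjusted p = 2.8e-08), with 12.6 CPM there and 8.74 CPM in fibroblasts. Pooled over the mice, a fibroblast cluster led by *Aspn* had 18.4 CPM of *Kcnma1* (87 UMIs) and smooth-muscle-like cells 14.9 CPM (62 UMIs). A fibroblast cluster led by *Pdgfra* had 0.241 CPM. *Kcnmb1* lies within the longer gene *Kcnip1* on the opposite strand, and the strand setting of the counting is not given in the sources used here, so reads of the pair cannot be told apart. *Kcnip1* itself had 14 UMIs in the kept cells.

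Pericytes and smooth muscle cells carried different sets of these genes. Between the pericyte-like and the smooth-muscle-like cells 14 potassium channel genes were tested. Of these, 6 were higher in the pericyte-like cells, where 16.6% of the 8648 genes tested were higher, and 7 were higher in the smooth-muscle-like cells, where 18.8% were. Among the pericyte-like cells, 43 formed a cluster of their own whose median was 775 UMIs. Without that cluster 15 potassium channel genes were tested between the types and 14 were called, 7 in each direction. Of the 8693 genes tested then, 1377 were higher in pericyte-like and 1699 in smooth-muscle-like cells.

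Within the mural class, smooth-muscle-like cells held all UMIs of *Kcna2*, *Kcna5* and *Kcnh2*. Outside it, fibroblasts had 206 UMIs of *Kcna2* and 99 of *Kcnh2*. *Kcna5* was at 60.4, 75.5 and 76.5 CPM in the smooth-muscle-like cells of mice 2, 3 and 4, and no UMI of it was found in pericyte-like cells, so that with a floor of 3 counts over the group it was at least 18.1-fold higher in smooth-muscle-like cells. *Kcnh2* was at 71.1, 91.5 and 67.3 CPM in smooth-muscle-like cells with no UMI in pericyte-like cells, which made it at least 19.5-fold higher. *Kcna2* (162 UMIs) likewise had no UMI in pericyte-like cells and was at least 10.1-fold higher. These 3 genes were called by the test, and their groups did not overlap. The folds take the counts in smooth-muscle-like cells as exact, without their counting error.

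The accessory genes *Kcnab1*, *Kcnmb1* and *Kcne4* were also higher in smooth-muscle-like cells. *Kcnab1* had 295 UMIs in smooth-muscle-like cells and 1 in pericyte-like cells, a ratio of 54.9 with a 95% exact counting interval of 9.78 to 2180. *Kcnmb1* was at 71.1, 76.3 and 75.1 CPM in smooth-muscle-like cells of mice 2, 3 and 4 and at 20.1, 24.6 and 30.6 CPM in pericyte-like cells (log2 fold change -1.69 ± 0.26 for pericyte-like against smooth-muscle-like cells, adjusted p = 3.5e-05). *Kcne4* was at 25.3 ± 5.003 CPM in smooth-muscle-like and 7.47 ± 1.24 CPM in pericyte-like cells. The 2 types thus did not overlap for any of these 3 genes. Of *Kcnma1*, which was too low for the test between the types, 62 UMIs lay in smooth-muscle-like and 1 in pericyte-like cells, a ratio of 11.5 with an exact interval of 2.00 to 463. The accessory gene *Kcnip3*, a calcium-binding partner of Kv4 channels, went the other way. It was also too low for that test, with 18 UMIs in pericyte-like and 8 in smooth-muscle-like cells (22.3 ± 11.2 and 1.95 ± 0.499 CPM), and was tested without the low-UMI cluster, where it was higher in pericyte-like cells (log2 fold change 3.38, adjusted p = 9e-05).

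A two-pore channel gene and Kv7, EAG and inward-rectifier genes were higher in pericyte-like than in smooth-muscle-like cells. *Kcnk3* was at 962, 756 and 846 CPM in the pericyte-like cells of mice 2, 3 and 4 and at 535, 516 and 477 CPM in smooth-muscle-like cells (log2 fold change 0.65 ± 0.11, adjusted p = 0.00011). The groups did not overlap, and both types stood above all other types. Counted as cells with a UMI, 67.9% of pericyte-like and 95.9% of smooth-muscle-like cells had *Kcnk3*, at median depths of 6368 and 10971.5 UMIs per cell. After each cell was thinned to 1000 UMIs these shares were 52.6% and 40.2%, with 30 pericyte-like and 0 smooth-muscle-like cells too shallow to be included. The share in B cells, which should lack the gene, was 0.618% at a median of 3959 UMIs, and 0.169% after thinning.

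*Kcnq5*, a Kv7 subunit, showed the sharpest contrast towards pericytes among the genes with UMIs in both types. It was at 152, 129 and 145 CPM in pericyte-like cells and at 2.01, 3.21 and 3.54 CPM in smooth-muscle-like cells (log2 fold change 5.46 ± 0.29, adjusted p = 1.3e-11), and was chosen after its values were seen. *Kcnh1*, which encodes the EAG1 channel, had 20 UMIs in pericyte-like cells and none in smooth-muscle-like cells. With the floor of 3 counts it was at least 35.8-fold higher, where the counting error of the 20 UMIs is left out. For both genes the pericyte-like values lay above all smooth-muscle-like values.

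*Kcnj8* encodes Kir6.1, the pore of the vascular ATP-sensitive channel, whose regulatory subunit SUR2 comes from *Abcc9*. In pericyte-like cells *Kcnj8* was at 57.4, 86.1 and 34.4 CPM, and in smooth-muscle-like cells at 11.4, 9.63 and 19.8 CPM (log2 fold change 1.91 ± 0.36, adjusted p = 0.00026). Of the 43 UMIs in pericyte-like cells, 12 came from 3 cells of the low-UMI cluster, and without that cluster the log2 fold change was 1.49 (adjusted p = 0.0045). Across the alternatives tried it ranged from 1.49 to 3.11. *Abcc9* was at 66.0, 123 and 88.0 CPM in pericyte-like and at 53.0, 63.4 and 63.7 CPM in smooth-muscle-like cells and was not called (log2 fold change 0.42, adjusted p = 0.16), and without the low-UMI cluster its fold change was -0.08 (adjusted p = 0.85).

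**Figure D2:**
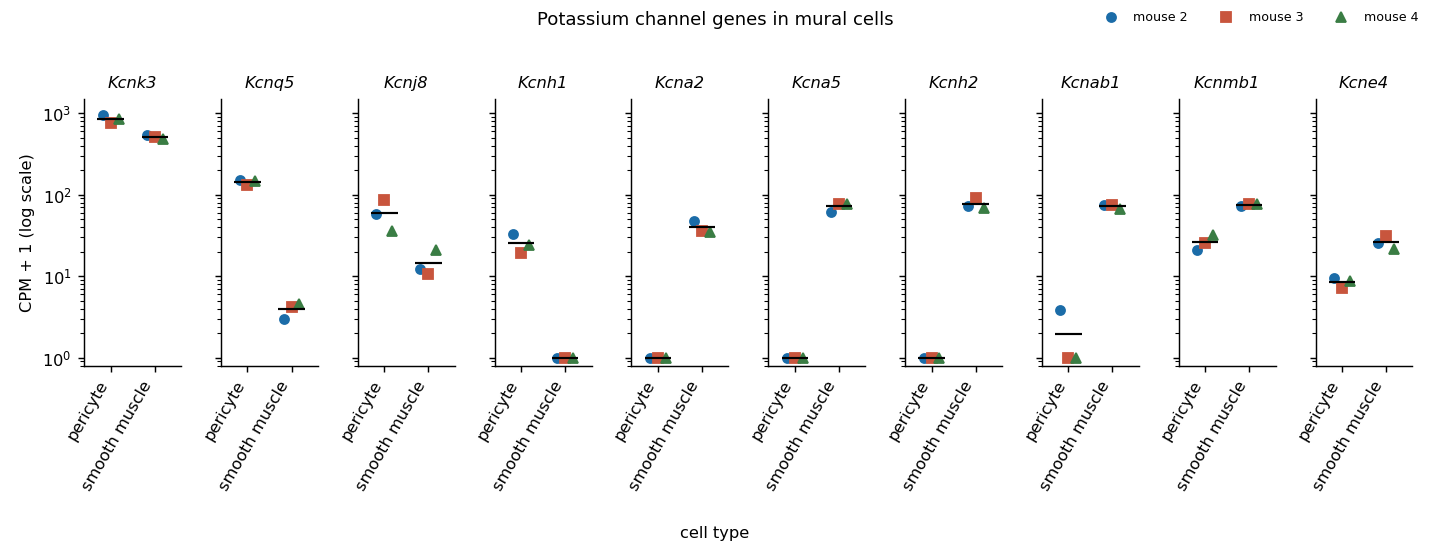
CPM + 1 (log axis) of 10 potassium channel genes in pericyte-like and smooth-muscle-like cells; each point is 1 mouse and the bar is the mean of the 3 mice. Kcnq5 sits between 129 and 152 CPM in pericyte-like cells and between 2.01 and 3.54 CPM in smooth-muscle-like cells, while Kcna2, Kcna5 and Kcnh2 are at 0 CPM in all pericyte-like samples.

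The sequences before the transcription starts of 4 of these genes are shown, because *Kcna2*, *Kcna5* and *Kcnmb1* shared the smooth-muscle side of this comparison and *Kcnh1* the pericyte side. They are the 250 bases before the start in RefSeq annotation of GRCm38.p6, the same assembly as mm10, read 5′ to 3′ on the gene's own strand, with CG dinucleotides in capitals. RefSeq windows were matched for 71 of the 98 symbols, as 96 windows, and *Kcnk3*, *Kcnb2* and *Kcnq1* were among those without one.

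Kcnmb1, chr11:33962763-33963012, plus strand: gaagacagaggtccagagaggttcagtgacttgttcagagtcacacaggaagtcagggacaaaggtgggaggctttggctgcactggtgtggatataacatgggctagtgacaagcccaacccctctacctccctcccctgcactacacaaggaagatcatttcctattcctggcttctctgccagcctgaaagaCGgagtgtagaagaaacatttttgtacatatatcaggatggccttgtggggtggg
Kcna5, chr6:126535556-126535805, minus strand: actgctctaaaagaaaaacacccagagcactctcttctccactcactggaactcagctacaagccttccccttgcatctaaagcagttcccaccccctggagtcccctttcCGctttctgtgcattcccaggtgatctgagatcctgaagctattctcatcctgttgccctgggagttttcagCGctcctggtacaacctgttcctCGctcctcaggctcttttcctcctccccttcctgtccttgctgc
Kcna2, chr3:107101317-107101566, plus strand: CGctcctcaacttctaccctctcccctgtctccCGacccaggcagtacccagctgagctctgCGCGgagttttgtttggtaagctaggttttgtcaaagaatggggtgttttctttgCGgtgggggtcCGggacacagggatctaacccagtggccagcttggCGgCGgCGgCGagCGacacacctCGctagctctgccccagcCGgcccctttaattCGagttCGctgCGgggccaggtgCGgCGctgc
Kcnh1, chr1:192190527-192190776, plus strand: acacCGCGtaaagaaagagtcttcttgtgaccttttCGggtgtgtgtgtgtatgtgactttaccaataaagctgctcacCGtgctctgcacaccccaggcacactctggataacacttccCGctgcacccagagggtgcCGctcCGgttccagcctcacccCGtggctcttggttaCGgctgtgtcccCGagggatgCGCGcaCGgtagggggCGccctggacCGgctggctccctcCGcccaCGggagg

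The 3 smooth-muscle genes differed in their CG content. *Kcnmb1* had 1 CG in the 250 bases and *Kcna5* had 3, while *Kcna2* had 18 and *Kcnh1* had 17, compared with a median of 6.0 over all 32851 windows and 7.5 over the 96 windows of potassium channel genes. The CArG box, the binding motif of serum response factor that is known from muscle promoters, was searched by its consensus on both strands and was present in 1.47% of all windows and in 0 of the 96. At so low a share in all windows, 0 of 96 does not set these genes apart. The letters TATAAA, on either strand, were in 12.4% of all windows and in 3 of the 96, or 3.12%. Those 3 windows belong to *Kcnj9*, *Kcnj13* and *Kcnj16*.

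Of the 40 tested genes 10 were called higher in ECs, which was near the share of 29.3% among all genes tested. *Kcnh1* was at 78.7, 63.6 and 79.5 CPM in ECs of mice 2, 3 and 4, and at most 5.98 CPM in any other class and mouse (log2 fold change 6.48 ± 0.19, adjusted p = 3.4e-15). Its UMIs in mural cells all came from the pericyte-like cells. Its gene overlaps *Hhat* on the opposite strand, with the limit on strand given above.

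*Kcnq1*, the pore of the slow delayed rectifier and of epithelial KCNQ1-KCNE channels, had 47.7 CPM in ECs and 12.7 CPM in epithelial cells, and at most 0.557 CPM in the other classes (log2 fold change 5.65 ± 0.22, adjusted p = 2.9e-13). The noncoding *Kcnq1ot1* is transcribed from within *Kcnq1* on the opposite strand, so the pair has the same limit. Its level in ECs was 161 CPM, the lowest of the 5 classes, whereas *Kcnq1* was highest there. *Kcnk6*, the two-pore channel TWIK-2, had 35.9 CPM in ECs against means of at most 8.17 CPM in the other classes. *Kcne3*, a partner of KCNQ1, had 10.7 CPM against class means of at most 1.96 CPM. Some immune types stood above these EC means. Pooled over the mice, interstitial macrophages had 55.3 CPM of *Kcnk6*. Dendritic cells had 14.4 CPM of *Kcne3* (23 UMIs), and basophil or mast cells 21.1 CPM (4 UMIs).

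The EC types differed in these genes. Between Car4-type and Aplnr-type capillary cells 7 potassium channel genes were tested, of which 1 was higher in the Car4-type cells, where 9.93% of the 8765 genes tested were higher, and 3 were higher in the Aplnr-type cells, where 10.5% were. *Kcnq1* was the gene higher in Car4-type cells. It was at 106, 107 and 66.9 CPM in Car4-type and at 44.6, 49.7 and 53.4 CPM in Aplnr-type cells (log2 fold change 0.92 ± 0.22, adjusted p = 0.0058). Its values did not overlap, but the call was lost without mouse 2 (adjusted p = 0.11) and without mouse 3 (adjusted p = 0.11).

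*Kcnh1* was the most uneven of the genes on the Aplnr side. In Aplnr-type cells it was at 89.6, 79.6 and 109 CPM and in Car4-type cells at 16.8, 0 and 8.92 CPM (log2 fold change -3.52 ± 0.46 for Car4-type against Aplnr-type cells, adjusted p = 1.3e-05). *Kcnk6* was also called (log2 fold change -1.28, adjusted p = 0.028), but under 5 other ways of choosing or clustering cells it lay between -0.19 and -0.16 and was not called. The call was also lost without mouse 2 (adjusted p = 0.11), without mouse 3 (adjusted p = 0.20) and with DESeq2 (adjusted p = 0.070). The Car4-type cells numbered 136, with a median of 2610 UMIs.

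Arterial and venous cells were not part of a test, and their values are given as a description. The leading genes of the cluster named venous included *Slc6a2* and *Vwf*, but also *Ccl21a* and *Mmrn1* from the lymphatic marker list. Whether it held lymphatic cells as well was not tested. The 154 arterial cells held *Kcne3* at 62.0, 68.3 and 80.0 CPM in mice 2, 3 and 4, with 1 UMI in all capillary cells of the Aplnr type and none in venous cells.

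*Kcnn4* and *Kcnj2* were likewise arterial among ECs. *Kcnn4* encodes the intermediate-conductance calcium-activated channel of endothelium-dependent hyperpolarisation and was at 80.6, 63.7 and 80.0 CPM in arterial cells, with 8.76, 3.04 and 15.2 CPM in venous cells, 2 UMIs in Aplnr-type and none in Car4-type cells. *Kcnj2*, the strong inward rectifier Kir2.1, was at 47.5, 66.0 and 52.7 CPM in arterial cells and had a mean of at most 8.68 CPM in the other EC types. For both genes the arterial values lay above all values of the other EC types. The small-conductance channel gene *Kcnn3* had 11.4 ± 9.21 CPM in arterial and 26.2 ± 33.0 CPM in venous cells, and these overlapped. They came from 16 UMIs in 13 arterial cells and 32 UMIs in 9 venous cells. *Kcnh1*, high in Aplnr-type cells, was also at 127, 109 and 25.3 CPM in venous cells and at 4.13, 4.55 and 7.80 CPM in arterial cells.

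**Figure D3:**
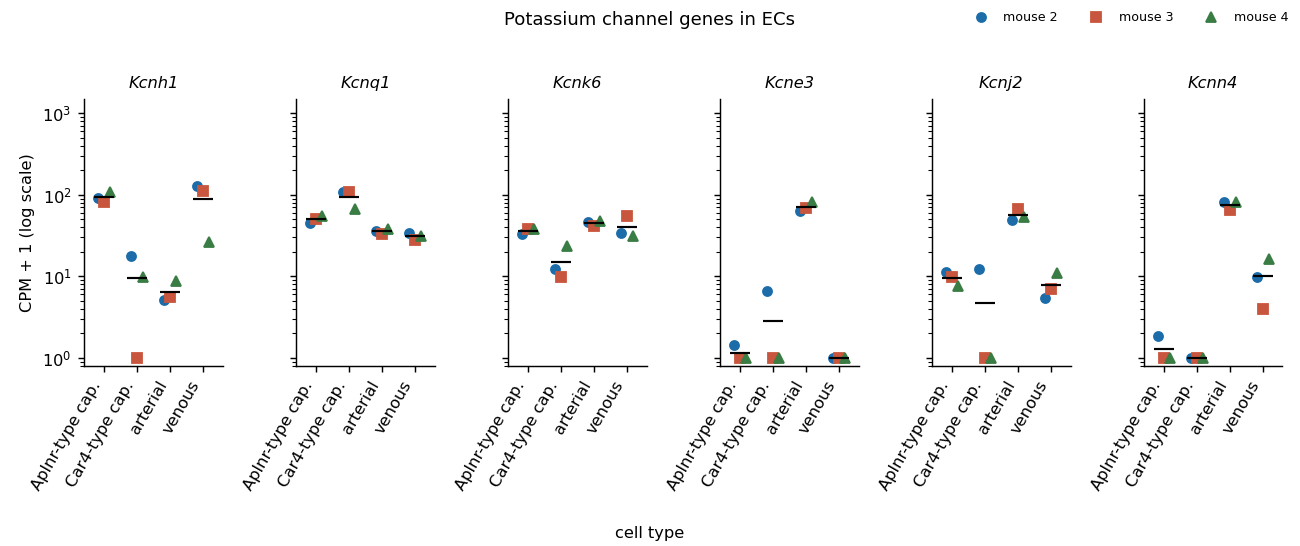
CPM + 1 (log axis) of 6 potassium channel genes in 4 EC types; each point is 1 mouse and the bar is the mean. Kcne3, Kcnj2 and Kcnn4 are highest in arterial cells, and Kcnq1 is highest in Car4-type cells.

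In epithelial cells 11 of the 40 tested genes were called higher, where 36.9% of all genes tested were. Inward rectifiers and an accessory subunit were among them. *Kcnj15* (Kir4.2) had 125 CPM in epithelial cells and at most 3.57 CPM elsewhere. *Kcnj13* (Kir7.1, a channel of transporting epithelia) had 31.3 CPM against at most 0.576 CPM, and *Kcnj2* had 26.4 CPM against 15.2 CPM in ECs. *Kcne2*, a subunit that keeps KCNQ1 open in epithelia such as gastric parietal cells, had 60.8 CPM against at most 0.464 CPM (log2 fold change 8.46 ± 0.17, adjusted p = 3.7e-17). Its known partner *Kcnq1* was called higher in epithelial cells too (log2 fold change 3.93 ± 0.26, adjusted p = 4e-10), while its level was higher still in ECs, which had 0.227 CPM of *Kcne2*.

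AT2-like cells held more of this set than AT1-like cells. Between AT1-like and AT2-like cells 11 potassium channel genes were tested, of which 1 was higher in AT1-like cells, where 23.9% of the 10419 genes tested were higher, and 6 were higher in AT2-like cells, where 23.1% were. *Kcnj15* was at 138, 149 and 139 CPM in AT2-like cells of mice 2, 3 and 4 and at 45.1, 86.0 and 28.8 CPM in AT1-like cells. *Kcnj2* was at 32.7 ± 8.32 and 5.83 ± 2.54 CPM and *Kcnj13* at 35.1 ± 2.95 and 10.9 ± 2.57 CPM in AT2-like and AT1-like cells (SD, n = 3). All were called, and none of the groups overlapped.

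The AT1-like levels of these genes rested on 1 small cluster. AT1-like cells formed a larger cluster (129 cells, median 6208 UMIs) and a smaller one (37 cells, median 35994 UMIs). The summed level of 6 AT2 markers was 2621 CPM in the first, 113981 CPM in the second and 208843 CPM in AT2-like cells. Of the AT1-like UMIs, 108 of 123 for *Kcnj15* and 31 of 32 for *Kcnj13* were in the 37 cells. Without that cluster the log2 fold change of AT1-like against AT2-like cells was -3.88 for *Kcnj15* (adjusted p = 2.6e-09) and -5.69 for *Kcnj13* (adjusted p = 7.6e-08).

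*Kcne2* was also higher in AT2-like cells, and *Kcnk1* was not called. *Kcne2* was at 70.1 ± 1.95 CPM in AT2-like and 44.6 ± 12.7 CPM in AT1-like cells (log2 fold change -0.77 ± 0.14, adjusted p = 0.00021), and of its 132 UMIs in AT1-like cells 49 lay outside the 37-cell cluster, without which its log2 fold change was -1.16 (adjusted p = 2.9e-05). *Kcnk1*, the two-pore channel TWIK-1, was at 22.6 ± 2.48 CPM in AT2-like and 23.8 ± 2.16 CPM in AT1-like cells. Its log2 fold change of AT1-like against AT2-like cells was -0.15 ± 0.19 and was not called (adjusted p = 0.57). The fold change includes edgeR's TMM scaling between samples, which the CPM values do not.

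Club-like cells, described without a test, had a further pair. *Kcnk2* encodes the stretch- and lipid-gated channel TREK-1 and was at 191, 148 and 146 CPM in club-like cells, compared with 20.3 ± 5.81 CPM in AT1-like and 12.5 ± 4.97 CPM in AT2-like cells. *Kcnmb2*, the BK beta-2 subunit, was at 25.3, 59.5 and 29.9 CPM in club-like cells and at 2.41 ± 0.673 CPM in AT2-like cells. *Lrrc26*, which encodes a BK gamma subunit and is no member of the Kcn symbols, was at 96.4 ± 20.1 CPM in club-like cells and at 0.492 ± 0.604 CPM in AT2-like cells. The BK pore gene *Kcnma1* had only 1 UMI in the club-like cells. The 98 club-like cells had a median of 740 UMIs, 51 were below 1000 UMIs, and 67 came from mouse 4.

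**Figure D4:**
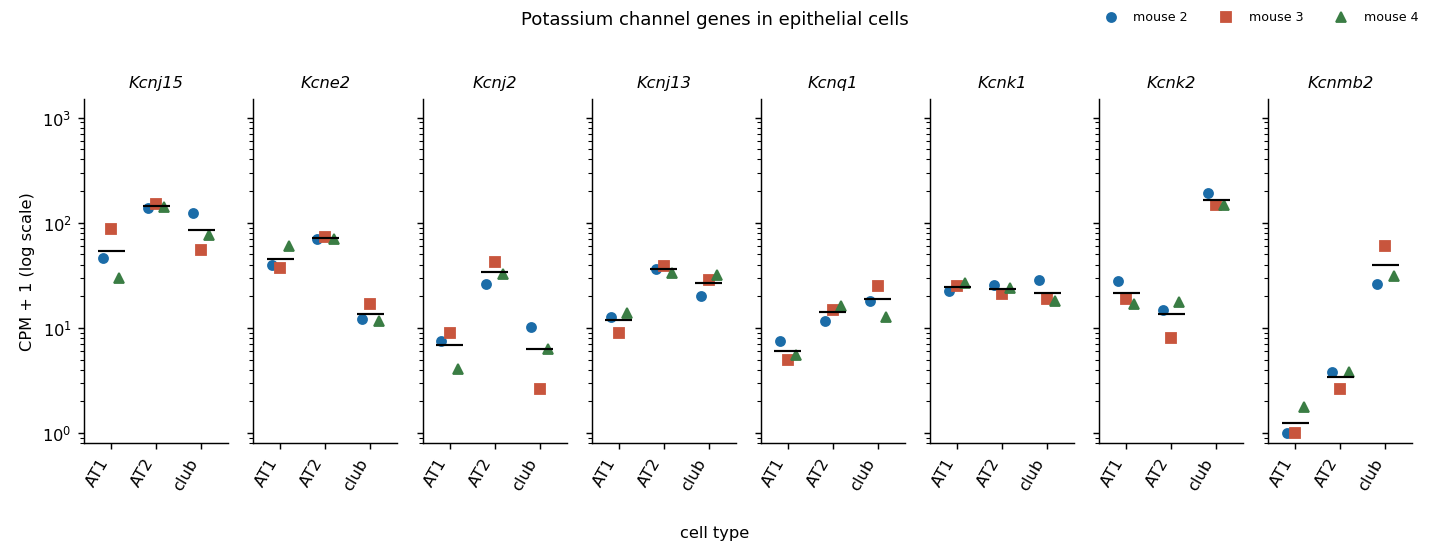
CPM + 1 (log axis) of 8 potassium channel genes in AT1-like, AT2-like and club-like cells; each point is 1 mouse and the bar is the mean. Kcnj15 sits at 138 to 149 CPM in AT2-like cells, and Kcnk2 and Kcnmb2 are highest in club-like cells.

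In fibroblasts 22 of the 40 tested genes were called higher, where 30.1% of all genes tested were. The median log2 fold change was 1.03 for the 40 and -0.05 for all genes. Without the filter on low counts 30 of 86 were called higher, against 22.6% of all genes, and the medians were -0.22 and -0.10. The mural and the fibroblast comparison each have the other class among their controls, so the levels are given by type. The Col14a1-type cells were led by cartilage genes such as *Col2a1* and *Acan* beside *Dcn*.

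*Kcnb2*, the Kv2.2 pore subunit, was at 185, 184 and 206 CPM in myofibroblast-like cells of mice 2, 3 and 4. The next types were smooth-muscle-like cells with 24.2 ± 6.27 CPM and Col13a1-type fibroblasts with 22.5 ± 5.20 CPM, and Col14a1-type fibroblasts had 14.8 ± 9.25 CPM. For the fibroblast class its log2 fold change was 5.66 ± 0.16 (adjusted p = 3.3e-15). A UMI was seen in 72.6% of myofibroblast-like cells and 0.168% of B cells, or in 17.0% and 0.0408% after thinning to 1000 UMIs.

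*Kcns3* encodes Kv9.3, a subunit that forms no channel of its own and modifies Kv2 channels. It was at 86.1, 86.6 and 83.6 CPM in myofibroblast-like cells and at 76.5, 71.2 and 64.8 CPM in Col13a1-type fibroblasts, with 9.86 ± 8.95 CPM in Col14a1-type fibroblasts. *Kcns3* thus spanned 2 fibroblast types, while its known partner *Kcnb2* was highest in the first. For the class *Kcns3* had a log2 fold change of 6.22 ± 0.16 (adjusted p = 1.7e-15).

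*Kcnj8* was called higher in fibroblasts as well (log2 fold change 4.93 ± 0.19, adjusted p = 3.5e-13). It was at 89.3, 82.5 and 70.3 CPM in myofibroblast-like cells, 49.9, 36.2 and 39.3 CPM in Col14a1-type fibroblasts and had a mean of 3.57 ± 0.568 CPM in Col13a1-type fibroblasts. Its partner *Abcc9* had 79.7 ± 15.7, 144 ± 54.2 and 6.56 ± 3.85 CPM in the same 3 types. Col13a1-type fibroblasts were therefore lowest of the fibroblast types for both subunits in every mouse. The myofibroblast-like values of *Kcnj8* overlapped with those of pericyte-like cells.

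Col13a1-type fibroblasts had other genes. *Kcnk13*, the two-pore channel THIK-1, was at 27.7, 28.0 and 55.0 CPM there, with 3 UMIs in 802 myofibroblast-like cells and 1 in Col14a1-type fibroblasts. *Kcna2* had 54.1 ± 12.2 CPM, *Kcne4* 46.8 ± 14.1 CPM and *Kcnh2* 35.6 ± 8.65 CPM in Col13a1-type fibroblasts, against 4.57 ± 2.18, 7.86 ± 1.09 and 1.29 ± 0.383 CPM in myofibroblast-like cells. *Kcna6*, a Kv1 pore subunit, showed the reverse, with 19.9 ± 2.79 CPM in myofibroblast-like and 0.470 ± 0.814 CPM in Col13a1-type cells. Col14a1-type fibroblasts also held *Kcna2* and *Kcne4*. Pooled over the mice they had 30.5 CPM of *Kcna2* (45 UMIs), 36.6 CPM of *Kcne4* (54 UMIs) and 6.11 CPM of *Kcnh2* (9 UMIs). *Kcnk3* had 150 ± 24.4 CPM in myofibroblast-like cells, 87.5 ± 23.6 CPM in Col13a1-type and 3.01 ± 3.12 CPM in Col14a1-type fibroblasts.

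**Figure D5:**
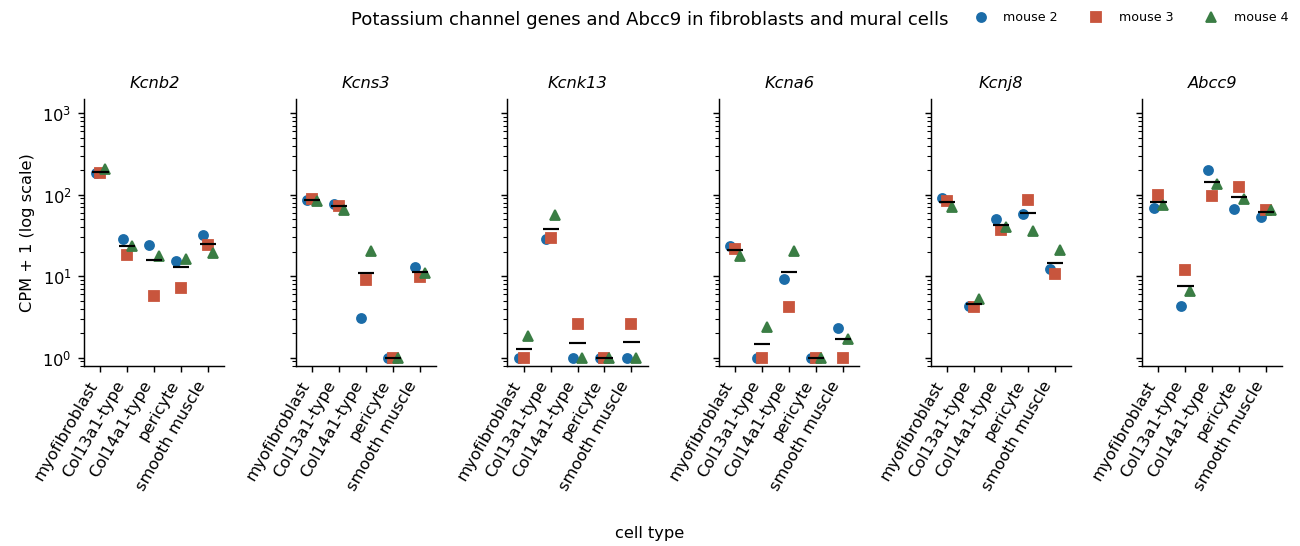
CPM + 1 (log axis) of 5 potassium channel genes and of Abcc9 in 3 fibroblast types and 2 mural types; each point is 1 mouse and the bar is the mean. Kcnb2 sits between 184 and 206 CPM in myofibroblast-like cells, Kcnk13 is highest in Col13a1-type fibroblasts, and Kcnj8 and Abcc9 are both lowest in Col13a1-type fibroblasts.

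Immune cells had the fewest members at 10 CPM or more. Of the 40 tested genes 9 were called higher in immune cells, where 37.9% of all genes tested were. *Kcnab2*, the Kv1 beta-2 subunit, was at 42.4, 57.3 and 51.1 CPM in immune cells of mice 2, 3 and 4 and at most 1.75 CPM in any other class and mouse (log2 fold change 6.57 ± 0.23, adjusted p = 2.2e-14). *Kcnn4*, which in lymphocytes is the calcium-activated channel that supports calcium entry, was at 35.7, 35.1 and 31.5 CPM in immune cells and at 13.1, 11.3 and 12.8 CPM in ECs (log2 fold change 4.97 ± 0.18, adjusted p = 6.1e-14). B cells were 1781 of the 3020 immune cells, so their values weigh most in the sums.

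Within the class the highest *Kcnab2* levels were in NK and T cells, with 156 ± 41.5 and 124 ± 9.71 CPM, against 38.3 ± 5.52 CPM in B cells and 13.6 ± 5.83 CPM in neutrophils. *Kcnn4* was highest among the named immune types in T cells, with 128 ± 38.3 CPM, and had no UMI in 467 neutrophils. A cluster of 66 immune cells led by *Il1rl1*, *Cxcr6*, *Arg1* and *Gata3* matched no type list, and 34 of its cells had a *Kcnn4* UMI, 54 UMIs in all. *Kcna3*, the Kv1.3 channel known from T cells, had 3 UMIs in 139 T cells and 13 in 1781 B cells. Only 38 of its 86 UMIs in the files lay in the kept cells. Among immune types its highest mean was in alveolar macrophages, at 14.7, 34.6 and 6.53 CPM from 10 UMIs. *Kcnab2* overlaps *Nphp4*, and *Kcnj13* overlaps *Gigyf2*, each on the opposite strand.

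Between lymphoid and myeloid cells 7 potassium channel genes were tested. Of these, 4 were higher in lymphoid cells, where 30.2% of the 9925 genes tested were higher, and 2 were higher in myeloid cells, where 32.1% were. *Kcnk5*, the two-pore channel TASK-2, was higher in lymphoid cells (log2 fold change 3.24 ± 0.66, adjusted p = 0.00059), with 9.30 ± 0.696 CPM in B cells and no UMI in neutrophils. *Kcnab2* was higher as well (0.80 ± 0.15, adjusted p = 0.00032), but not in every lymphoid type against every myeloid type. Pooled over the mice, the B cell clusters had 46.8 and 32.8 CPM of it. Basophil or mast cells had 63.3 CPM, interstitial macrophages 38.7 CPM, alveolar macrophages 34.6 CPM and dendritic cells 33.3 CPM.

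The 2 myeloid genes had different carriers. *Kcnj2* was at 20.2, 95.5 and 101 CPM in neutrophils, and at 183 and 132 CPM in the basophil or mast cells of mice 3 and 4, the only mice with at least 10 such cells. It had 5 UMIs in B cells and none in T, NK or dendritic cells (log2 fold change -6.00 ± 0.63 for lymphoid against myeloid cells, adjusted p = 9.3e-07). *Kcnk6* was at 39.4, 84.4 and 45.6 CPM in interstitial macrophages and 29.4 ± 10.9 CPM in dendritic cells, and had 22 UMIs in B cells (log2 fold change -3.10 ± 0.34, adjusted p = 1.3e-06).

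*Kcnq1ot1*, the imprinted noncoding RNA that silences neighbouring genes on the paternal chromosome, was found in all 5 classes, with class means from 161 CPM in ECs to 428 CPM in fibroblasts. It was higher in lymphoid than in myeloid cells (log2 fold change 2.02 ± 0.11, adjusted p = 7.5e-10), with 527 ± 58.9 CPM in B cells and 26.4 ± 21.9 CPM in neutrophils. Pericyte-like cells had 583 ± 139 CPM and smooth-muscle-like cells 265 ± 63.3 CPM (log2 fold change 1.06 ± 0.17, adjusted p = 3.4e-05). In ECs it was at 454 ± 41.9 CPM in arterial cells and 50.6 ± 28.98 CPM in Car4-type cells. The 452 cells of a cluster left without a class, whose median was 843.5 UMIs, had 4 UMIs of it in all.

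A list of 29 genes that act beside potassium channels (calcium and pacemaker channels, pumps, chloride channels and further regulatory subunits) was set next to them, and 21 passed the filter on low counts. In mural cells 12 of the 21 were called higher, where 27.1% of all genes were. Among them were the chloride channel gene *Ano1* (log2 fold change 5.14), *Abcc9* (4.89), the calcium release channel gene *Ryr2* (4.89) and *Cacna1c* (3.81), the L-type calcium channel pore. In ECs 5 were higher (29.3% of all genes), among them the mechanosensitive channel gene *Piezo1* (2.22). In epithelial cells 9 were higher (36.9% of all genes), among them the chloride channel gene *Cftr* (8.58) and the pump subunit gene *Atp1b1* (5.33). In fibroblasts 9 were higher (30.1% of all genes) and in immune cells 3 (37.9% of all genes). The mural count includes *Trpc6*, which also served to name pericyte-like cells.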

How the data were processed

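The deposited files held raw UMI counts per gene and cell, which the authors made with Cell Ranger 3.0.2 on mm10 for each mouse. The annotation and counting strand are not given in the sources used here. Barcodes with fewer than 200 genes or with more than 20% of UMIs from mitochondrial genes were dropped. Counts were normalised with sctransform 0.4.2 and clustered in Seurat 5.3.0 (30 components, resolution 0.8) with no potassium channel gene among the variable genes. By scrublet score, 156 likely doublets were marked and kept.

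Counts were summed per mouse and type where at least 10 cells were present and tested with edgeR 4.0.16 (quasi-likelihood, Benjamini-Hochberg over all genes tested). The p-values measure the spread between 3 mice. DESeq2 1.42.0, other cell filters, other resolutions and leaving out each mouse were alternatives. All types came from the same animals, and deviations of a mouse from the class means correlated across classes (median r 0.17, 0.15 and 0.25 for mice 2, 3 and 4). On simulated counts for mural cells against the other classes (13219 genes), edgeR recovered 92% of genes changed by 2 on the log2 scale and called 0.0730% of unchanged genes. For AT1-like against AT2-like cells (10180 genes) it recovered 90.5% and called 0.0881%. In the simulation all groups shared the same profile apart from the changed genes, which were not drawn from the lowest genes. No effect of the mouse was added, so these rates need not hold for the tests reported here. Intervals cover counting error only.

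Genes were named by this rule: up to 8 per class called higher by at least 1 on the log2 scale and highest there in all 3 mice, up to 4 per direction in each comparison of types, both by most UMIs, and 15 fixed genes. Some genes that this rule named are not reported here. Values of arterial, venous, club and fibroblast types and of other genes were chosen after they were seen. The members and lists were chosen with earlier results of these data known.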

Additional observations from a re-analysis of the deposited data

How the results depend on the processing

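Of 714 fold changes of named genes recomputed under the alternatives, over 51 comparisons, 698 had the same sign and call as in the report, 16 were no longer called and 0 changed sign. Among those 16 were *Kcnk6* and *Kcnq1* between Car4-type and Aplnr-type cells. Counts of members are of those called higher for a class, and of those called in either direction between types. Without a filter on low counts, where more genes are tested, the called members numbered 17 in epithelial and 19 in immune cells, of 86 tested. Of all 20366 genes tested, 6031 and 6253 were then called higher. Between pericyte-like and smooth-muscle-like cells 21 of 53 members were called, where 1545 of 15490 genes were higher and 2072 lower. Between lymphoid and myeloid cells it was 17 of 58, where 3787 of 17075 genes were higher and 3700 lower. Without a filter on cells the last was 12 of 12, where 3197 of 10485 genes were higher and 3472 lower. Between Car4-type and Aplnr-type cells, 4 of 7 tested members were called in the report and 8 of 10 at resolution 0.4. It was 2 of 6 with the stricter cell limits, and 2 of 7 at resolution 1.2 or with the members among the variable genes. The cause was not tested. All genes higher and lower in Car4-type cells numbered 870 and 916 of 8765 in the report, and 920 and 1073 of 9183 at resolution 0.4. They numbered 654 and 574 of 8344 with the stricter limits and 728 and 632 of 8724 at resolution 1.2. With the members among the variable genes they were 739 and 633 of 8735. Leaving out 1 mouse gave 20 to 22 in mural cells, 9 to 10 in ECs, 11 to 12 in epithelial cells, 21 to 22 in fibroblasts and 7 to 8 in immune cells. These were of 40 to 42 members tested, among 13920 to 14066 genes. Of all genes 3246 to 3389 were then called higher in mural cells, 3466 to 3710 in ECs and 4618 to 4783 in epithelial cells. In fibroblasts it was 3660 to 3877 and in immune cells 4864 to 5039. Between pericyte-like and smooth-muscle-like cells, leaving out 1 mouse gave 11 to 15 of 13 to 16 tested. All genes higher and lower then numbered 1111 to 1272 and 1276 to 1450 of 8630 to 9183. Between Car4-type and Aplnr-type cells it gave 2 to 4 of 6 to 9, with 2 without mouse 2 or mouse 3. All genes there were 549 to 591 and 595 to 629 of 8869 to 9529. Between AT1-like and AT2-like cells it gave 7 to 8 of 12 to 13. All genes there were 1870 to 2270 and 1712 to 2195 of 10420 to 10935. Between lymphoid and myeloid cells it gave 6 to 9 of 8 to 11. All genes there were 2296 to 2720 and 2875 to 3164 of 9930 to 10343. With the mouse as a replicate block the counts were 22, 9, 11, 22 and 9 of 40 in the 5 classes, and no named gene lost its call. All genes called higher then numbered 3763, 4111, 5175, 4228 and 5297 of 13894. Between types the counts were 13 of 14, 4 of 7, 7 of 11 and 6 of 7. All genes higher and lower there were 1380 and 1562 of 8648, 791 and 849 of 8765, 2458 and 2363 of 10419, and 3004 and 3208 of 9925. Without TMM scaling the median of all genes was -0.44 in epithelial cells, 0.19 in ECs, 0.13 in fibroblasts, 0.21 between AT1-like and AT2-like cells and 0.24 between lymphoid and myeloid cells. All genes higher and lower then numbered 5849 and 2597 in ECs, 3253 and 7327 in epithelial cells, 5358 and 2540 in fibroblasts, 3499 and 1615 between AT1-like and AT2-like cells, and 3912 and 2657 between lymphoid and myeloid cells.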

Other observations

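Outside the 5 classes, Schwann-like cells had a set of their own. This cluster held 27 cells (9, 10 and 8 in mice 2, 3 and 4). It held 364 of the 367 UMIs of *Kcna1*, in 25 of its 27 cells. *Kcna1* encodes Kv1.1, known from axons and nerve. *Kcna2* had 230 UMIs in 26 of these cells and *Kcna6* 141 UMIs in 23 of them. With fewer than 10 cells in 2 of the mice, no test was made.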
